A study of Mus musculus with 4 samples.

Results

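The genes described here build cilia and move cargo along them: the axonemal dynein heavy chains, the factors that assemble dynein arms, the Cfap, radial spoke and tektin proteins of the axoneme, the subunits of intraflagellar transport (IFT), and 7 regulators or left-right genes of the ciliated node. They were chosen by symbol (those starting with Dnah, Tekt or Ift and a digit, or with Dnaaf, Cfap or Rsph, plus Foxj1, Noto, Dand5, Pkd1l1, Pkd2, Rfx2 and Rfx3). Of the 39179 genes in each count table, 84 carried such a symbol, and 74 of these were kept because they had 10 or more counts in at least 2 embryos. The genes left out were Cfap73, Cfap97d1, Cfap97d2, Dnah14, Rsph14, Rsph6a, Tekt3, Tekt5, the antisense RNA Dnah2os and Foxj1. The rule used symbols and counts, not the difference between the groups, but was set with earlier results of these data known. Of the 74 kept genes, only Cfap58 reached 10 counts in the embryos of 1 group alone.

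RNA sequencing was run on 4 single chimeric embryos of the mouse at stage E7.75. All 4 came from 8-cell host embryos of an ARC x RLZRFP cross that were injected with embryonic stem cells (ESCs) grown in 2i medium. These ESCs expressed, on doxycycline, a FLAG-tagged version of the homeodomain transcription factor LHX1. The version was FLAG-Lhx1 in 2 embryos and FLAG-Lhx1-mt in 2 (also written FLAG-Lhx1-Δ), whose alteration is not described in the sources used here. The recipient females drank 2 mg/mL doxycycline with 5% sucrose for 24 hours, and embryos were collected at E8.5, since they lagged by about a day. There is no group without doxycycline or without a transgene, the ages of the females are not given, and how many ESC clones were used is not stated. Host cells keep their own genes, and the counts do not separate host from ESC descendants. The comparison asks which genes differ when the intact form is induced in place of the altered one.

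The libraries held 21267116 to 30434442 counts, and 3 counts corresponded to 0.0957 to 0.152 CPM (counts per 1000000 counts, scaled by TMM), a floor that covers counting error only. Lhx1 itself was at 128 and 114 CPM in FLAG-Lhx1 and at 126 and 98.4 CPM in FLAG-Lhx1-mt, which overlap, and since its counts add the endogenous gene and any transgene reads they do not check the labels. Notochord and node markers were present: T, the notochord and streak factor Brachyury, ran from 103 to 239 CPM, and Noto, a homeobox gene of the node, from 4.15 to 11.9 CPM. Foxj1, the forkhead factor that drives motile cilia, was nearly absent. Its counts were 2 and 2 in FLAG-Lhx1 and 11 and 7 in FLAG-Lhx1-mt, so its CPM in both FLAG-Lhx1 embryos lay below the floor of 3 counts. The name node cilia therefore rests on Noto, Dand5, Pkd1l1, a few low axonemal genes and Pifo, a node cilia gene outside the members. The IFT genes were read from the whole embryo. In such bulk samples, fewer cells of a type and less RNA per cell cannot be told apart.

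Cilia are built on a basal body as a cylinder of microtubule doublets, the axoneme. Motile cilia add dynein arms, radial spokes and bracing proteins, whereas primary cilia, which most embryonic cells carry, lack the arms but need the same transport trains. In the mouse node, rotating cilia of pit cells drive a leftward fluid flow, and unmoving cilia of crown cells sense it through the PKD1L1 and PKD2 channel, after which the NODAL antagonist DAND5 falls on the left. RFX factors bind the X-box, a pair of inverted arms found upstream of many ciliary genes, and FOXJ1 works beside them on genes of motile cilia.

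The promoters of the members were searched for the X-box because RFX factors are among the members. RefSeq promoters on GRCm38.p6, running from 250 bases before to 50 bases after an annotated start, matched 59 of the 74 members by symbol. The full X-box (GTTGCC, 2 free bases, GG, any base, then AAC) was found on either strand in 1 of these 59 (1.69%), against 0.355% of the 27025 genes with a promoter, and the looser X-box, which leaves 2 more of these bases free and so includes the full one, in the same promoter against 0.788% of all genes. That promoter belongs to Cfap298, which has a role in dynein arm formation known from zebrafish and humans. The first arm of the X-box, GTTGCC, a search added after the values were seen, was in 25 of the 59 (42.4%) against 14.1% of all genes. It was in 9 of 21 Cfap, 5 of 11 Ift, 3 of 12 Dnah and 3 of 3 tektin promoters. The FOX motif TGTTTAC was in 3 of the 59 (5.08%), those of Cfap20, Cfap43 and Dnah17, against 4.05% of all genes. Only arms 2 bases apart counted as an X-box, so arms at another spacing, or with other changed letters, were not counted as one. Member promoters had a median GC content of 56.3%, against 52.7% for all promoters, and a match describes letters and not a bound site.

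The promoter with the full X-box follows, with 3 that hold the arm GTTGCC but no full X-box. They were chosen after the values were seen. Cfap298 holds the only full match, Tekt1 holds 2 arms in opposite orientation, Dnah7a has the smallest p among the dyneins and Rfx3 was called. Each reads 5′ to 3′ on the strand of its gene, and capitals mark the arm GTTGCC on either strand or the full X-box. The matches begin 188, 180, 69 and 60 bases before the start in Cfap298, where the first 2 form the full X-box. The last 2 there also face each other, at a wider spacing than the form searched. The matches begin 35 and 15 bases before the start in Tekt1, 200 before it in Dnah7a, and 31 after it in Rfx3. Dnah7a also holds gttgcttagcaac, a facing pair with a changed letter in each arm and closer spacing. That form was not searched and is left unmarked.
Cfap298 promoter, chr16:90934800-90935099, minus strand: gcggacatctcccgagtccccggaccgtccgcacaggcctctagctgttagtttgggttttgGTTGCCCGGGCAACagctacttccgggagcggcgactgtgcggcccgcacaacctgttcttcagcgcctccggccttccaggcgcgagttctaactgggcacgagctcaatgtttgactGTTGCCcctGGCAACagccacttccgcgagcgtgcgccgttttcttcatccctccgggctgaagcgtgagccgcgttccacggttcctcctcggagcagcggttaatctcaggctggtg
Tekt1 promoter, chr11:72361833-72362132, minus strand, 1 of the 2 starts in the reference: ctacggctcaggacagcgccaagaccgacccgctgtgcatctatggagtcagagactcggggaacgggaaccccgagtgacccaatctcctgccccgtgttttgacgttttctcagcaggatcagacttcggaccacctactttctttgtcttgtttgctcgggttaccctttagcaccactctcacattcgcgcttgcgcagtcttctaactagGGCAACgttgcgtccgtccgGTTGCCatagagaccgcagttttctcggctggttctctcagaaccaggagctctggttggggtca
Dnah7a promoter, chr1:53706735-53707034, minus strand: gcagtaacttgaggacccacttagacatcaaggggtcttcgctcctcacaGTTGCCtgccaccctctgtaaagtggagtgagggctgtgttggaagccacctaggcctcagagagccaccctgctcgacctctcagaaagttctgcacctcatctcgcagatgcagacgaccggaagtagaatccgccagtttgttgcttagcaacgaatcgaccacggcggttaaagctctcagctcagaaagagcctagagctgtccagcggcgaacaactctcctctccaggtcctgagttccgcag
Rfx3 promoter, chr19:28011117-28011416, minus strand: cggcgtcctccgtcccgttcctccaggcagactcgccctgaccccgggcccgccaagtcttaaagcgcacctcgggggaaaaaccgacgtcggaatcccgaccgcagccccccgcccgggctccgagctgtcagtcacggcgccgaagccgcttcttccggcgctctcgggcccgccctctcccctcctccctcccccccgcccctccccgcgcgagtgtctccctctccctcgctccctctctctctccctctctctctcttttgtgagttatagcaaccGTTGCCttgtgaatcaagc

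Between the groups, Ift81, Ift74 and Rfx3 were higher in FLAG-Lhx1, and no member was called lower. These 3 of the 73 tested members (4.11%) compare with 415 of all 15822 tested genes (2.62%) called higher and 561 (3.55%) called lower, 6.17% in all, by edgeR's quasi-likelihood test at an adjusted p under 0.05. Most members lay slightly higher in FLAG-Lhx1: 59 of 73 log2 differences were above 0 (80.8%), against 50.9% of all tested genes. Their median log2 difference was 0.44, against 0.01 for all tested genes. Both FLAG-Lhx1 embryos exceeded both FLAG-Lhx1-mt embryos for 30 tested members (41.1%), against 26.4% of all tested genes, and lay below both for 3 members, against 25.8%. At an unadjusted p under 0.05 there were 14 members higher (19.2%) and 1, Dnaaf2, lower, where 9.94% of all tested genes were higher and 21.3% passed in either direction. These counts describe the list and are no test of it. All members were read from the same 4 libraries, and the list was chosen with earlier results of these data known.

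**Figure D1:**
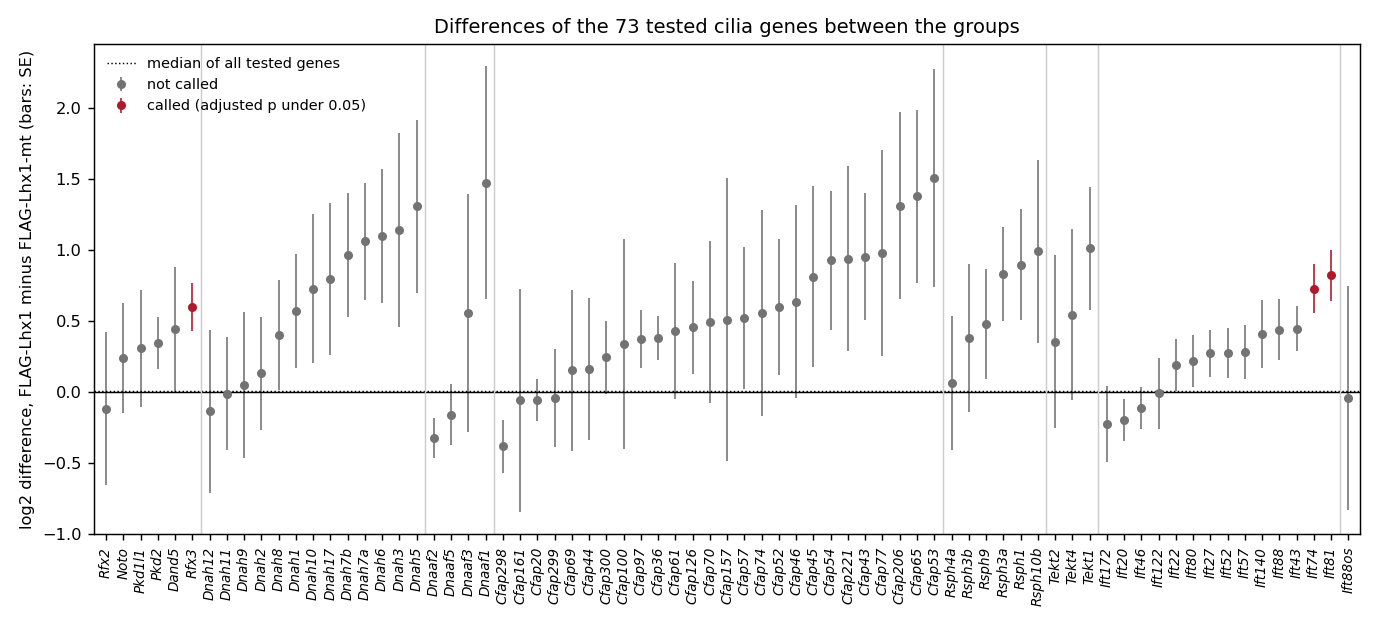
Log2 difference between the groups (FLAG-Lhx1 minus FLAG-Lhx1-mt, vertical axis) for each of the 73 tested members, ordered by family, with bars of 1 standard error and a dotted line at the median of all tested genes. Most points lie above 0, and the called genes Rfx3, Ift74 and Ift81 (red) have short bars, while the dynein and Cfap genes have long ones.

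Among the regulators, Rfx3, an RFX factor that binds the X-box and is needed for full-length node cilia in the mouse, rose. Its levels were 71.4 and 77.1 CPM in FLAG-Lhx1 and 56.8 and 41.4 CPM in FLAG-Lhx1-mt, a log2 difference of 0.60 ± 0.17 (SE, edgeR adjusted p = 0.0477). The groups did not overlap, and the second FLAG-Lhx1-mt embryo was the lowest. With gene length and GC content modelled, the log2 difference was 0.37 and the call was lost (edgeR adjusted p = 0.213). Rfx2, a related factor of motile cilia, stayed between 0.762 and 1.73 CPM, with a log2 difference of -0.12 ± 0.54 (SE, edgeR adjusted p = 0.931).

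Noto, which acts upstream of Foxj1 in the mouse node, differed more within groups than between them. It was at 11.9 and 6.50 CPM in FLAG-Lhx1 and at 11.7 and 4.15 CPM in FLAG-Lhx1-mt. The first embryo of each group was high and the second low, and the log2 difference was 0.24 ± 0.39 (SE, edgeR adjusted p = 0.777, 95% interval -0.59 to 1.07). Without the first FLAG-Lhx1-mt embryo it was 1.16 and called (edgeR adjusted p = 0.00500), and without the second it was -0.34 (edgeR adjusted p = 0.509). Foxj1 was too low for the test, and with no filter on low counts its log2 difference was -1.96 (edgeR adjusted p = 0.568).

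Of the flow-sensing genes, Pkd2, the cation channel subunit that primary cilia also carry, was the most abundant per length. It was at 34.7 and 34.0 CPM in FLAG-Lhx1 and at 30.8 and 23.5 CPM in FLAG-Lhx1-mt, without overlap, and the log2 difference was 0.34 ± 0.18 (SE, edgeR adjusted p = 0.292). Its partner Pkd1l1, the presumed flow sensor, was at 2.44 and 2.69 CPM against 2.57 and 1.59 CPM, and the groups overlapped. Dand5, the crown cell antagonist of NODAL, was at 1.79 and 2.44 CPM against 1.67 and 1.44 CPM. Its groups did not overlap, with a log2 difference of 0.44 ± 0.44 (SE, edgeR adjusted p = 0.618, 95% interval -0.49 to 1.37). Rates per length were 3.02 CPM per kb of exon for Pkd2, 1.16 for Dand5 and 0.304 for Pkd1l1.

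**Figure D2:**
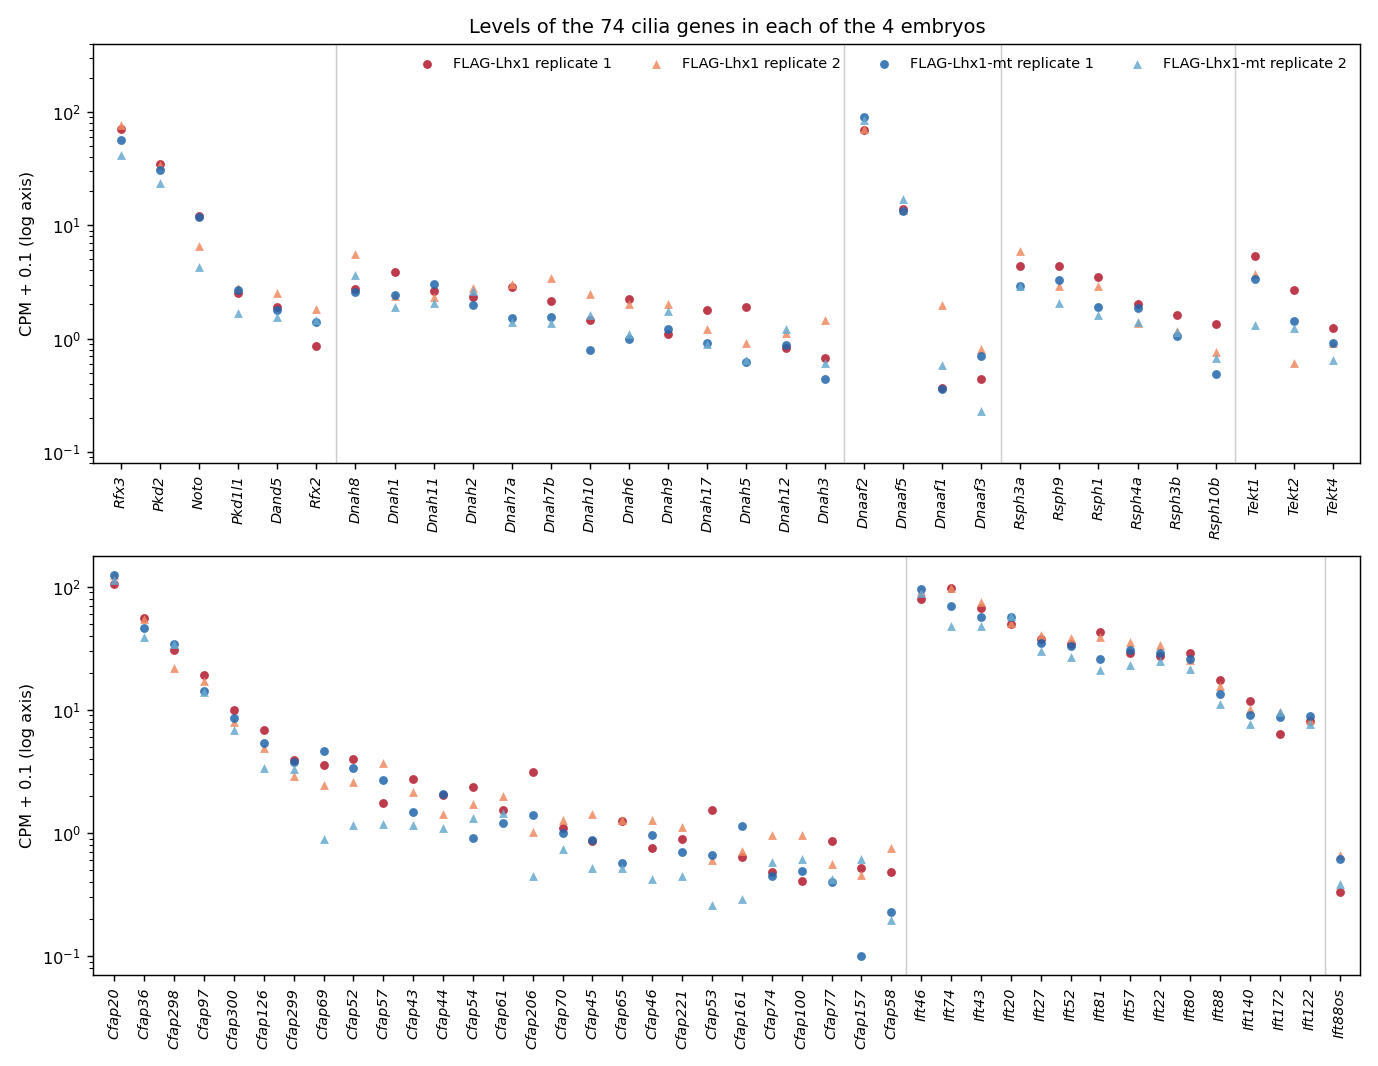
Level of each of the 74 members in each embryo (CPM plus 0.1, log axis), grouped by family and ordered by mean level. Most IFT genes and a few Cfap, Dnaaf and regulator genes sit above 10 CPM, most motile axoneme genes sit below 5 CPM, and the second FLAG-Lhx1-mt embryo (light blue) is the lowest point for 45 of the 74.

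The 13 axonemal dynein heavy chains, the motors of the arms, were all low, with means of 0.699 to 3.54 CPM. None was called, 11 of 13 log2 differences were above 0 and their median was 0.73, but the median standard error was 0.47. Dnah7a, an inner-arm chain, was at 2.74 and 2.95 CPM in FLAG-Lhx1 and at 1.42 and 1.31 CPM in FLAG-Lhx1-mt. The groups did not overlap and each pair of embryos lay close together, with a log2 difference of 1.06 ± 0.41 (SE, edgeR adjusted p = 0.146). Its near-identical copy Dnah7b had a log2 difference of 0.96 ± 0.44 (SE), and since reads may be split between the copies both values are uncertain. Dnah6, another inner-arm chain, was at 2.13 and 1.93 CPM against 0.901 and 0.989 CPM, again without overlap, with a log2 difference of 1.10 ± 0.47 (SE, edgeR adjusted p = 0.191).

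Of the 5 outer-arm chains, which set the beat frequency of motile cilia, 4 had log2 differences above 0 and none was called. Dnah11, whose loss in the mouse randomizes left and right, was at 2.55 and 2.23 CPM against 2.92 and 1.95 CPM, a log2 difference of -0.01 ± 0.40 (SE, edgeR adjusted p = 0.991). Its groups overlapped, with a 95% interval of -0.86 to 0.83. Dnah5, the other outer-arm chain known for left-right defects when mutated, was at 1.79 and 0.812 CPM against 0.515 and 0.542 CPM. It had no overlap but counts of only 12 to 47, and a log2 difference of 1.31 ± 0.61 (SE, edgeR adjusted p = 0.230). Dnah17, Dnah8 and Dnah9 had log2 differences of 0.80 ± 0.53, 0.40 ± 0.39 and 0.05 ± 0.51 (SE), with no overlap between the groups in Dnah17 alone of these. Median log2 differences were 0.40 for the 5 outer-arm and 0.85 for the 8 inner-arm chains, a difference that was not tested. Dnah1, an inner-arm chain, had the highest level per length of the family, 0.196 CPM per kb of exon, and a log2 difference of 0.57 ± 0.40 (SE, edgeR adjusted p = 0.445).

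The Dnaaf genes, which encode cytoplasmic factors that fold and assemble dynein arms, did not move together. Dnaaf2 was at 69.6 and 70.6 CPM in FLAG-Lhx1 and at 90.2 and 85.3 CPM in FLAG-Lhx1-mt. It was the only Dnaaf gene without overlap, on the lower side, with a log2 difference of -0.32 ± 0.14 (SE, edgeR adjusted p = 0.204). Exons of other genes cover 71.4% of its exon bases, so part of its reads may belong to them. Dnaaf1 ranged from 0.257 to 1.88 CPM, and its high value came from the second FLAG-Lhx1 embryo alone. Its log2 difference was 1.47 ± 0.82 (SE, edgeR adjusted p = 0.323), and 20.7% of its exon bases are shared with Taf1c. Dnaaf3 ran from 0.128 to 0.711 CPM and Dnaaf5 from 13.4 to 17.1 CPM, both with overlapping groups.

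The Cfap family, a mixed set of axonemal and flagellar proteins, spanned the widest range of levels, with means of 0.316 to 117 CPM over 27 members. None of the 26 tested was called, 22 log2 differences were above 0 and the median was 0.50. Cfap20, a protein of the doublet's inner junction, was the most abundant per length. It was at 105 and 124 CPM in FLAG-Lhx1 and at 124 and 114 CPM in FLAG-Lhx1-mt, and the overlapping groups gave a log2 difference of -0.06 ± 0.15 (SE, edgeR adjusted p = 0.869, 95% interval -0.37 to 0.25). Cfap36, which had the smallest p of the family, was at 55.7 and 54.4 CPM against 45.9 and 38.8 CPM. Its groups did not overlap, with a log2 difference of 0.38 ± 0.16 (SE, edgeR adjusted p = 0.174).

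Lower in the same family, Cfap65, known from sperm flagella, was at 1.14 and 1.17 CPM in FLAG-Lhx1 and at 0.472 and 0.415 CPM in FLAG-Lhx1-mt. The groups stood apart on counts of 11 to 30, with a log2 difference of 1.38 ± 0.61 (SE, edgeR adjusted p = 0.204). Cfap206, a radial spoke base protein, varied within both groups, at 3.01 and 0.914 CPM against 1.29 and 0.351 CPM. Like Noto, it was high in the first and low in the second embryo of each group. Cfap298, which holds the full X-box printed above, was at 30.6 and 21.9 CPM against 34.4 and 34.1 CPM. It lay lower in both FLAG-Lhx1 embryos, with a log2 difference of -0.38 ± 0.19 (SE, edgeR adjusted p = 0.259), and 53.6% of its exon bases overlap other genes. Cfap58, the only kept gene outside the test, had 10 and 13 counts against 3 and 3.

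Radial spoke genes, whose products link the arms to the central pair, had log2 differences above 0 in 6 of 6 and a median of 0.65, with none called. Rsph1, a spoke head protein, was at 3.39 and 2.79 CPM in FLAG-Lhx1 and at 1.80 and 1.53 CPM in FLAG-Lhx1-mt. Its groups did not overlap, with a log2 difference of 0.90 ± 0.39 (SE, edgeR adjusted p = 0.200). Rsph3a, a spoke stalk protein, was at 4.27 and 5.79 CPM against 2.83 and 2.81 CPM, a log2 difference of 0.83 ± 0.33 (SE, edgeR adjusted p = 0.156). It has a near copy, Rsph3b, whose log2 difference was 0.38 ± 0.52 (SE), and the split of reads between them is uncertain. Rsph9, a spoke head protein with the highest level per length in the family, had overlapping groups and a log2 difference of 0.48 ± 0.39 (SE, edgeR adjusted p = 0.520).

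Tektins are filaments inside the doublets, and 3 of 5 were kept. Tekt1 was at 5.26 and 3.61 CPM in FLAG-Lhx1 and at 3.26 and 1.21 CPM in FLAG-Lhx1-mt. Both groups were spread and did not overlap, with a log2 difference of 1.01 ± 0.43 (SE, edgeR adjusted p = 0.189). Without the first FLAG-Lhx1-mt embryo it was 1.87 and called (edgeR adjusted p = 8.21e-04), and without the second it was 0.44 (edgeR adjusted p = 0.562). Tekt4 ran from 0.542 to 1.14 CPM, with a log2 difference of 0.54 ± 0.60 (SE, edgeR adjusted p = 0.657). Tekt2 ran from 0.508 to 2.59 CPM with its extremes in the 2 FLAG-Lhx1 embryos.

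Intraflagellar transport genes were the more abundant members, with means of 8.15 to 89.4 CPM over all 14. Their median level was 9.14 CPM per kb of exon, against 0.216 for the motile axoneme families (Dnah, Dnaaf, Cfap, Rsph and Tekt), and their median standard error was 0.18 against 0.50. Within IFT, 2 of 14 genes rose, where 2.62% of all tested genes were called higher. Both belong to the IFT-B complex that carries cargo toward the ciliary tip, as do 11 of the 14. Median log2 differences were 0.27 for these 11 and 0.41 for the 3 of the IFT-A complex. Ift81 was at 43.0 and 39.2 CPM in FLAG-Lhx1 and at 25.8 and 20.8 CPM in FLAG-Lhx1-mt. The groups stood well apart, with means of 41.1 ± 2.71 and 23.3 ± 3.52 CPM (SD, n = 2 each) and a log2 difference of 0.82 ± 0.18 (SE, edgeR adjusted p = 0.0135). Ift81 lies on chromosome 5 at 122550204 to 122614518 of GRCm38, on the minus strand.

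Ift74, whose product pairs with IFT81 to bind tubulin as cargo, was at 97.2 and 97.8 CPM in FLAG-Lhx1 and at 69.8 and 48.1 CPM in FLAG-Lhx1-mt. The FLAG-Lhx1 embryos were nearly equal and the second FLAG-Lhx1-mt embryo was the lowest, with means of 97.5 ± 0.453 and 59.0 ± 15.4 CPM (SD, n = 2 each) and a log2 difference of 0.73 ± 0.17 (SE, edgeR adjusted p = 0.0214). Ift74 lies on chromosome 4 at 94614491 to 94693229, on the plus strand, and its promoter held none of the motifs searched.

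The other IFT-B genes differed less between the groups. Ift88, a core subunit whose loss removes node cilia in the mouse, was at 17.4 and 15.4 CPM in FLAG-Lhx1 and at 13.3 and 11.0 CPM in FLAG-Lhx1-mt. It did not overlap, with a log2 difference of 0.44 ± 0.22 (SE, edgeR adjusted p = 0.259). Ift20, a subunit that also sits at the Golgi, was at 49.8 and 50.4 CPM against 57.2 and 57.6 CPM. It was the only IFT gene lower in both FLAG-Lhx1 embryos, with a log2 difference of -0.20 ± 0.15 (SE, edgeR adjusted p = 0.489). The remaining IFT-B log2 differences ran from -0.22 in Ift172 to 0.28 in Ift57. The antisense RNA Ift88os had 6 to 12 counts and a log2 difference of -0.04 ± 0.79 (SE), and without a known strand setting its reads and those of Ift88 cannot be told apart where they overlap.

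IFT-A, which carries cargo back to the cell body and admits membrane proteins, has 3 members here. Ift43 was at 66.5 and 74.7 CPM in FLAG-Lhx1 and at 56.2 and 47.5 CPM in FLAG-Lhx1-mt. The groups did not overlap, and the log2 difference of 0.45 ± 0.16 (SE, edgeR adjusted p = 0.107) was called only with gene length and GC content modelled, at 0.63 (edgeR adjusted p = 0.0280), or without the first FLAG-Lhx1-mt embryo, at 0.57 (edgeR adjusted p = 0.0289). Ift140 was at 11.7 and 10.1 CPM against 8.96 and 7.53 CPM, and Ift122 at 8.00 and 8.23 CPM against 8.79 and 7.56 CPM. Ift43 had the highest level per length of all IFT genes, 37.1 CPM per kb of exon, followed by Ift20 at 35.2.

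**Figure D3:**
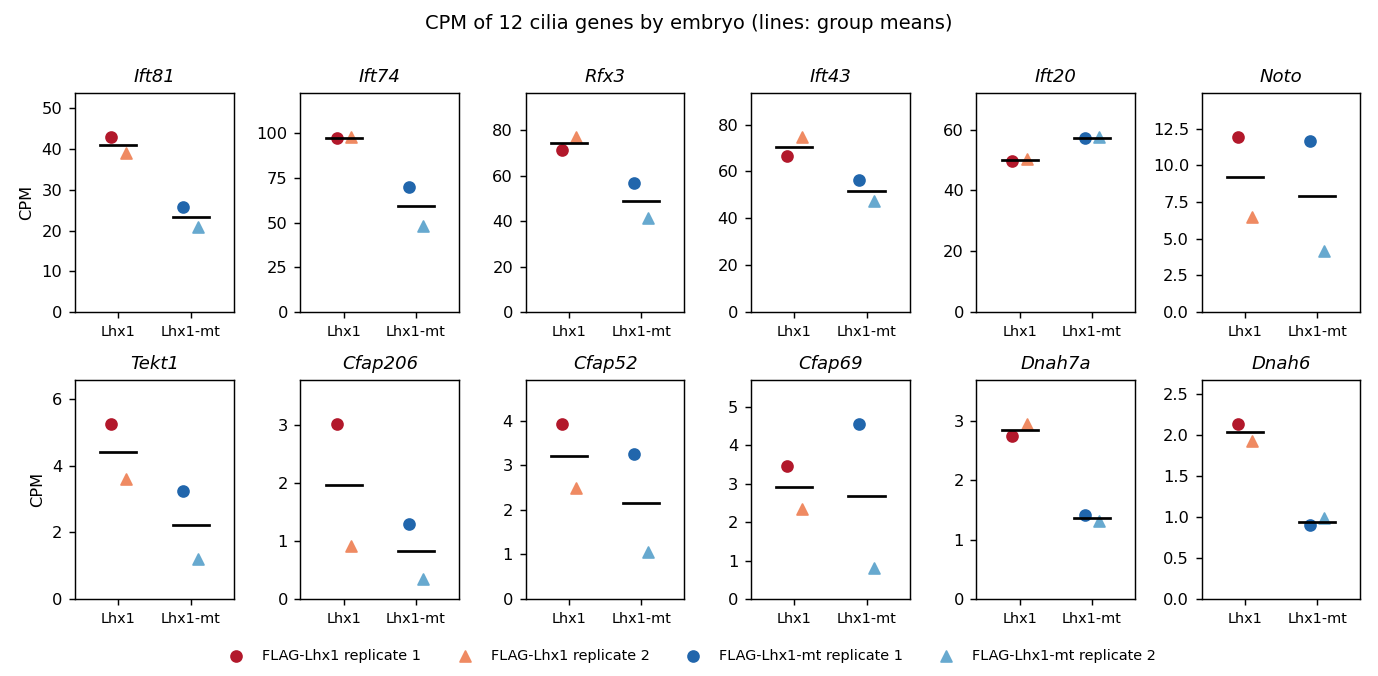
CPM of 12 members in each embryo (vertical axes start at 0), with lines at the group means. Ift81, Ift74, Rfx3 and Ift43 separate the groups, with the FLAG-Lhx1-mt embryos of Ift74 and Rfx3 apart from each other, Dnah7a and Dnah6 separate them at 1 to 3 CPM, Ift20 is lower in FLAG-Lhx1, and Noto, Tekt1, Cfap206, Cfap52 and Cfap69 differ widely between embryos of the same group.

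Further ciliary genes were read from 7 lists written from general knowledge, in which 169 genes outside the members were tested. Of these, 8 were called higher and 6 lower, against 2.62% and 3.55% of all tested genes, and 124 log2 differences were above 0, with a median of 0.30. Among 23 tested IFT subunits with other symbols and IFT motors, 2 rose and none fell. Hspb11, which encodes the IFT-B subunit IFT25, was at 38.8 and 49.5 CPM in FLAG-Lhx1 and at 26.7 and 26.1 CPM in FLAG-Lhx1-mt, a log2 difference of 0.74 ± 0.17 (SE, edgeR adjusted p = 0.0205). Tctex1d2, a light chain of the retrograde motor dynein-2, was at 29.9 and 30.0 CPM against 19.8 and 18.5 CPM, a log2 difference of 0.65 ± 0.18 (SE, edgeR adjusted p = 0.0438). Both separated the groups without overlap, and the median log2 difference of the list was 0.27.

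Among 32 other dynein arm and assembly genes, Dynlrb2 rose and Ruvbl2 fell. Of the 32, 23 had log2 differences above 0, with a median of 0.42 over the list. Dynlrb2, a roadblock light chain of dyneins, was at 5.49 and 4.47 CPM in FLAG-Lhx1 and at 2.06 and 0.606 CPM in FLAG-Lhx1-mt, a log2 difference of 1.94 ± 0.47 (SE, edgeR adjusted p = 0.0240), which was 3.03 without the first FLAG-Lhx1-mt embryo and 1.26 without the second. Ruvbl2, a chaperone ATPase with many roles outside cilia, was at 235 and 231 CPM against 376 and 349 CPM, a log2 difference of -0.64 ± 0.14 (SE, edgeR adjusted p = 0.0145). The outer-arm intermediate chain genes Dnai1 and Dnai2 had log2 differences of 1.55 ± 0.60 and 2.31 ± 0.85 (SE, edgeR adjusted p = 0.144 and 0.127), on counts of 1 to 46, and were named after their values were seen. Among 29 central pair and other axonemal genes, Fam183b alone was called, at 6.55 and 6.55 CPM against 2.74 and 0.893 CPM, a log2 difference of 1.88 ± 0.42 (SE, edgeR adjusted p = 0.0170), which was 2.86 without the first FLAG-Lhx1-mt embryo and 1.24 without the second.

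Of 14 further regulators, E2f5 rose and E2f4 and Myb fell. E2f4 and E2f5 act with GMNC and MCIDAS in multiciliated cells but also in the cell cycle of other cells, as does Myb. E2f5 was at 102 and 84.5 CPM in FLAG-Lhx1 and at 60.6 and 63.9 CPM in FLAG-Lhx1-mt (log2 difference 0.58 ± 0.15, SE, edgeR adjusted p = 0.0342). E2f4 was at 18.1 and 18.3 CPM against 26.1 and 32.6 CPM (log2 difference -0.69 ± 0.19, SE, edgeR adjusted p = 0.0425), and Myb at 2.90 and 1.88 CPM against 6.78 and 8.61 CPM (log2 difference -1.68 ± 0.32, SE, edgeR adjusted p = 0.00704). All 3 separated the groups.

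Among 18 BBSome and trafficking genes, Bbip1 rose and Rab8a fell. Bbip1, the smallest BBSome subunit, was at 78.1 and 74.1 CPM in FLAG-Lhx1 and at 47.5 and 47.8 CPM in FLAG-Lhx1-mt (log2 difference 0.68 ± 0.15, SE, edgeR adjusted p = 0.0142). Rab8a, a GTPase of vesicle transport to the cilium and elsewhere, was at 95.8 and 104 CPM against 160 and 136 CPM (log2 difference -0.57 ± 0.15, SE, edgeR adjusted p = 0.0330). None of 34 transition zone and basal body genes was called, with 25 log2 differences above 0. Of these Cep83, a distal appendage protein, had the smallest p, at 54.6 and 43.9 CPM against 28.3 and 37.8 CPM (log2 difference 0.58 ± 0.18, SE, edgeR adjusted p = 0.0769).

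Among the left-right genes outside the members, Dll1 rose and Lefty2 and Nodal fell. Dll1, a Notch ligand needed for Nodal expression at the node, was at 31.9 and 31.5 CPM in FLAG-Lhx1 and at 17.2 and 10.5 CPM in FLAG-Lhx1-mt (log2 difference 1.20 ± 0.22, SE, edgeR adjusted p = 0.00557), and 20.6% of its exon bases overlap an antisense gene. Nodal was at 1.56 and 1.22 CPM against 6.09 and 9.19 CPM (log2 difference -2.45 ± 0.35, SE, edgeR adjusted p = 9.34e-04), and its feedback inhibitor Lefty2 at 37.4 and 31.7 CPM against 197 and 94.4 CPM (log2 difference -2.07 ± 0.25, SE, edgeR adjusted p = 2.45e-04). Nodal and Lefty2 are also expressed in the epiblast and streak before the node forms.

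Some cell type markers differed between the groups as well, while no tested maternal, primitive blood or endothelial marker was called. Of all tested genes, 2.62% were called higher and 3.55% lower. Of 14 tested node and notochord markers, 3 were called higher (Sox9, Shh and Pifo) and 3 lower (T, Cer1 and Nodal). Pifo, a gene of node cilia, was at 29.8 and 19.4 CPM in FLAG-Lhx1 and at 15.9 and 6.70 CPM in FLAG-Lhx1-mt, with the first embryo of each group higher, as in Noto and Tekt1. The summed node list, members included, was 362 and 269 CPM in FLAG-Lhx1 and 436 and 349 CPM in FLAG-Lhx1-mt, and these sums overlapped. They include T, also a streak factor and called lower, at the high levels given above. Of the 14 tested genes of this list, 10 had log2 differences above 0, with a median of 0.45. Visceral endoderm markers summed to 2352 and 2748 CPM in FLAG-Lhx1 and to 4678 and 4006 CPM in FLAG-Lhx1-mt, with 6 of 15 called lower and none higher. Extraembryonic ectoderm markers summed to 340 and 333 CPM against 451 and 537 CPM, with 2 of 9 called lower (Eomes and Rhox5). Yet 5 of these 9 had log2 differences above 0, and the median over the 9 was 0.41. The part of these cell types in the cilia differences was not tested.

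Across embryos, the members divided FLAG-Lhx1-mt more than FLAG-Lhx1. The second FLAG-Lhx1-mt embryo was the lowest of the 4 for 44 of 73 tested members (60.3%), against 26.4% of all tested genes. The first exceeded the second in FLAG-Lhx1-mt for 52 of 73 members (71.2%), against 51.9% of all tested genes. In FLAG-Lhx1 the first exceeded the second for 35 of 73 (47.9%), against 49.7% of all tested genes. The 14 IFT genes summed to 536 and 572 CPM in FLAG-Lhx1 and to 498 and 424 CPM in FLAG-Lhx1-mt, and the second FLAG-Lhx1-mt embryo was the lowest for 11 of them. The 13 dynein heavy chains differed in this respect, with sums of 25.3 and 29.4 CPM against 17.6 and 19.6 CPM, and the first FLAG-Lhx1-mt embryo was the lowest for 6 and the second for 5.

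The second FLAG-Lhx1-mt embryo also stood apart in other ways. Its library was the deepest. Eomes, a streak and trophoblast factor, was at 153 CPM there, against 43.2 CPM in the first FLAG-Lhx1-mt embryo and 13.2 and 9.29 CPM in FLAG-Lhx1. The decidual gene Prl8a2 and the adult globin genes Hba-a1 and Hbb-bs were at 1.66, 2.43 and 1.09 CPM in it. In the other embryos they were at most 0.305 CPM. With these genes included, the maternal list of 10 genes summed to 6.67 and 7.41 CPM in FLAG-Lhx1. The list summed to 6.86 CPM in the first FLAG-Lhx1-mt embryo and to 9.32 CPM in the second. Markers of primitive blood and endothelium summed to 21.4 to 30.5 CPM. The part of these differences in the cilia values was not tested.

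Which embryos entered the fit decided most calls. Without the first FLAG-Lhx1-mt embryo, 9 members were called higher (Cfap206, Cfap52, Cfap69, Ift43, Ift74, Ift81, Noto, Rfx3 and Tekt1), where 4.82% of all tested genes were called higher. Without the second, only Ift81 was called, where the share of all tested genes called higher was 3.4%, and the median log2 difference of the members fell from 0.44 to 0.28. Without the first FLAG-Lhx1 embryo, only Ift74 was called (1.45% of all tested genes), and without the second, Ift74 and Ift81 were (1.49%). Among these fits, Rfx3 was called only when all 4 embryos or all but the first FLAG-Lhx1-mt embryo were used. No member was called in all of these fits: Ift81 missed the threshold without the first FLAG-Lhx1 embryo (edgeR adjusted p = 0.0938) and Ift74 without the second FLAG-Lhx1-mt embryo (edgeR adjusted p = 0.0819). Both kept their direction, with log2 differences of 0.66 to 0.98 for Ift81 and 0.47 to 1.01 for Ift74, as did Rfx3, with 0.37 to 0.84. Of the named genes in the further lists, E2f5, E2f4, Tctex1d2, Bbip1 and Rab8a lost their call without the first FLAG-Lhx1 embryo, and E2f4, Tctex1d2, Rab8a, Ruvbl2 and Hspb11 without the second. Rab8a lost it without the first FLAG-Lhx1-mt embryo, and E2f4 and Tctex1d2 without the second, where Cep83 gained one (edgeR adjusted p = 0.00241).

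**Figure D4:**
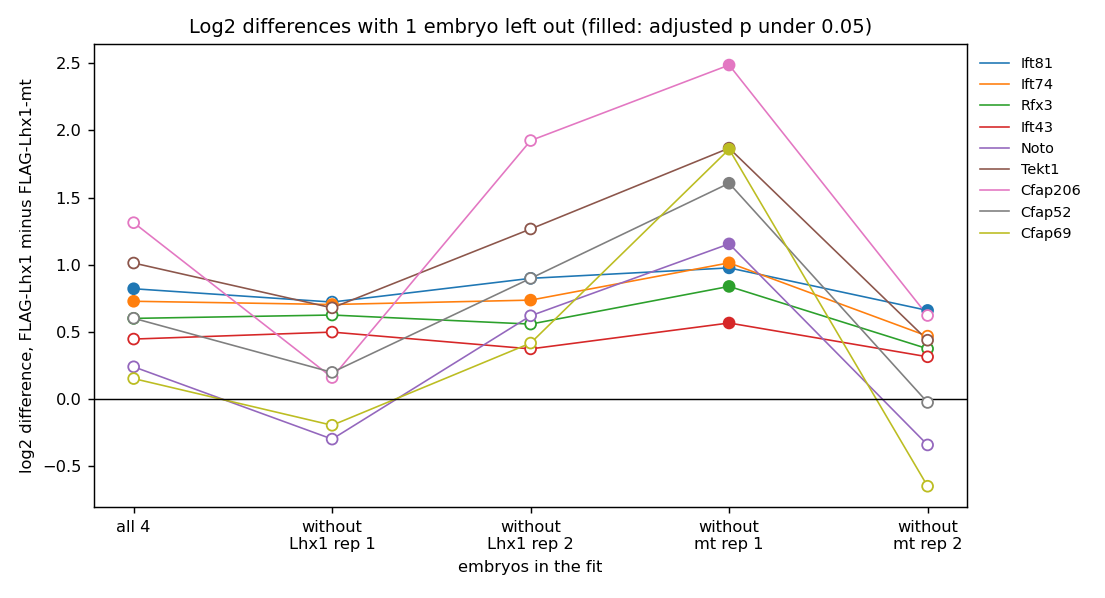
Log2 difference of the 9 members called in any of these fits (vertical axis), with all 4 embryos and with each left out (horizontal axis), filled where the adjusted p was under 0.05. The lines for Ift81, Ift74, Ift43 and Rfx3 stay above 0 in every fit shown, whereas Noto and Cfap69 pass below 0 without the first FLAG-Lhx1 embryo or without the second FLAG-Lhx1-mt embryo, and Cfap52 passes just below 0 without the latter.

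Across the 73 tested members, the log2 difference was related to the mean level more than to other gene properties. Spearman's rho was -0.41 with CPM, 0.08 with exon length and -0.03 with GC content, given as descriptions since the genes share the same 4 libraries. The low genes thus had the larger log2 differences and the larger errors, while the calls were made among genes above 20 CPM.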

How the data were processed

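The authors deposited whole-number read counts per Ensembl gene for each of the 4 embryos, with no scaling. The tools were STAR and featureCounts (Subread), on GRCm38 or mm10, per the submitters' processing notes. Their versions, the gene annotation and the strand option were not given in the sources used here. Per the labels' protocols, libraries followed Geo-seq, with 10 cycles of cDNA pre-amplification, 0.5 ng of cDNA per Nextera XT library and 100 bp paired reads. They carry no molecular identifiers, so amplified copies count as reads.

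Symbols and exons came from GENCODE vM21 (GRCm38), which holds 37693 of 39179 IDs (96.2%). Genes passing filterByExpr (minimum count 10, minimum total 15) numbered 15822. Groups were compared with edgeR 4.0.16 (R 4.3.3) on TMM-scaled counts by the quasi-likelihood F test with group only, adjusted by Benjamini-Hochberg over all 15822 genes. A gene was called at an adjusted p under 0.05. Log2 differences (log2 fold changes) subtract FLAG-Lhx1-mt from FLAG-Lhx1, and each SE divides the difference by the root of its F statistic. Variance was shared between genes (prior degrees of freedom 13.4, residual 2; biological coefficient of variation 18.2%). Each library is 1 embryo, per the labels, and there are 2 per group. A permutation test of 2 against 2 cannot give an exact p below 0.333. The procedure was run on simulated counts, with the same coefficient of variation for all genes and changes planted only in genes of higher counts. That run does not cover changes in genes of low counts or a spread that differs between genes.

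The members and lists were chosen with earlier results of these data known. Named genes were the 7 single genes, called members, in each family the 2 smallest p and the highest level per kb, and called list genes; others were named after their values were seen, namely Ift88, Ift20, Ift140, Ift122, Ift172, Ift57, Dnah5, Dnah8, Dnah9, Dnah11, Dnah7b, Rsph3b, Tekt2, Dnaaf3, Dnaaf5, Cfap43, Cfap52, Cfap58, Cfap69, Cfap206, Cfap298, Dnah17, Ift88os, Dnai1 and Dnai2. List symbols were matched directly or through RefSeq synonyms; Gdf1, Pierce1 and Rib43a were unmatched. Alternatives used DESeq2 1.42.0 and limma 3.58.1 voom, other scalings and filters, offsets for gene length and GC content, the replicate number as a block, and each embryo left out. A gene of the left-right list is not reported here.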

Additional observations from a re-analysis of the deposited data

How the results depend on the processing

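The number of members called higher was 3 under RLE or upper-quartile scaling, under other filters on low counts, in DESeq2 and in limma-voom, with members limited to 20 or more counts in at least 2 embryos, and without members whose exons overlap other genes by over 20% (added after seeing the data). Each time they were Ift74, Ift81 and Rfx3. With offsets for gene length and GC content the number was 3 as well, but Ift43 took the place of Rfx3. No member was called lower in any setting. With 1 embryo left out, where the lone embryo of a group is assumed to vary like the other group, the members called ranged from 1 to 9, their median log2 difference from 0.28 to 0.63, and the calls over all genes from 521 to 1648. Over all genes, 976 calls became 1447 with no filter on low counts, 1202 in DESeq2, 1019 in limma-voom, 867 under upper-quartile scaling (472 of them higher) and 771 with the offsets. Over all tested genes, the replicate numbers showed no pairing of the embryos: their deviations from the group means correlated at 0.016. With 2 embryos per group, this cannot show whether a number marks a shared litter or day. The fit with the replicate block called the same 3 members and 1138 genes, and with block and offsets Ift43, Ift74 and Ift81 and 710 genes. For the genes named by rule, 457 comparisons of a log2 difference with its alternative kept their side of the threshold, 28 lost the call and 6 gained it. The sign turned in 8 of the 457, all in genes that were not called (Cfap20, Dnaaf1, Lhx1, Noto, Pkd1l1 and Rfx2), and in no called gene. Outside this count, Cfap52 and Cfap69, named after their values were seen, also turned sign in at least 1 setting each. E2f4 and Rab8a lost their call under upper-quartile scaling, E2f4 with the offsets, and Tctex1d2 with no filter on low counts and with the block. Depth limits the motile axoneme genes most, where low counts leave a median standard error of 0.50.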
